A study of Mus musculus with 6 samples.

Results

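Ribosome biogenesis genes encode the machinery that transcribes ribosomal RNA in the nucleolus, modifies and cuts it, and assembles it into the small (40S) and large (60S) ribosomal subunits. RNA polymerase I makes the precursor RNA, small nucleolar ribonucleoproteins (snoRNPs) guide its modification, and a series of assembly factors binds and leaves the maturing particles. The transcription factor MYC is known to activate many of these genes in growing cells, and growing tumour cells need a steady output of ribosomes. The 46 genes described here were chosen by symbol: Myc, 44 nucleolar and ribosome assembly genes and Cad, and each is represented by its probe set with the highest mean over the 6 arrays. All 46 were on the array, out of 18193 genes with a single-symbol probe set.

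The arrays measured cultured 4T1 cells, an established mouse line from a metastatic mammary carcinoma. Control cells carried a vector with a control shRNA (3 arrays), and the other cells carried a vector with an shRNA against NFAT1, the calcium-regulated transcription factor encoded by Nfatc2 (3 arrays). Cells of either kind were harvested after 10 days of selection, and 200 ng of RNA was labelled per array. Since no label states that replicate arrays are separate cultures, the p-values cover only the scatter of these samples, possibly technical in origin. In bulk RNA, fewer cells of a type and less RNA per cell cannot be told apart. Values are log2 RMA signals, and differences are NFAT1 shRNA minus control, so that -1 corresponds to 50% of the control signal.

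The number of arrays limits the precision. The 6 Nfatc2 probe sets differed by -0.76 to 0.35 between the groups, 4 of them lower with NFAT1 shRNA, and 0 had an adjusted p under 0.05 (lowest 0.0628). The clearest probe set read 6.05, 6.18 and 5.91 in controls and 5.15, 5.43 and 5.29 with NFAT1 shRNA. It was low on all 3 NFAT1 shRNA arrays, array 1 included. Another Nfatc2 probe set of similar brightness was higher on all 3 of these arrays. It read 5.92, 5.92 and 5.86 in controls and 6.19, 6.48 and 6.09 with NFAT1 shRNA. The Nfatc2 probe sets thus had no common direction. All 6 epithelial markers were bright (means 9.68 to 13.07), and their summed log2 signal ran from 14.79 to 14.81 in controls and from 14.81 to 14.99 with NFAT1 shRNA. Of the fibroblast, leukocyte and endothelial markers, 1 of 7, 2 of 5 and 0 of 4 had a mean above 6, among them Pdgfra at 7.47, Csf1r at 8.17 and Cd68 at 6.92. Defining genes of these cells were dim, with Col1a1 at 4.64, Ptprc at 2.95 and Pecam1 at 3.35. The summed signal of the leukocyte markers ran from 8.66 to 9.07 in controls and from 8.10 to 9.65 with NFAT1 shRNA, and Cd68 read 6.22, 6.85 and 6.55 in controls and 6.23, 7.75 and 7.92 with NFAT1 shRNA. Csf1r read 8.08, 8.49 and 8.23 in controls and 6.99, 9.01 and 8.26 with NFAT1 shRNA, and Ptprc differed by 0.01 between the groups. The summed signal of the fibroblast markers ran from 7.72 to 8.54 in controls and from 8.02 to 8.92 with NFAT1 shRNA. Most of it came from Pdgfra, at 6.30, 7.90 and 7.47 in controls and 6.82, 8.44 and 7.88 with NFAT1 shRNA. The endothelial sum ran from 6.50 to 6.57 in controls and from 6.59 to 6.86 with NFAT1 shRNA. Cd68, Csf1r and Pdgfra were each highest on NFAT1 shRNA 2 or 3 and, among the controls, highest on control 2, and 0 of the marker genes passed the test. The part of these markers in the results was not tested.

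The arrays of a group stood apart from each other in these genes before any comparison of groups. For all 46 genes control 1 read highest of the controls, control 2 lowest and control 3 between them, an order that 29% of all genes showed. The median gap between control 1 and control 2 was 0.50. Among the NFAT1 shRNA arrays, array 1 read highest for all 46 genes, against 39% of all genes. The medians of the 46 genes against the control mean were 0.25, -0.27 and 0.04 on controls 1 to 3 and 0.14, -0.81 and -0.65 on NFAT1 shRNA 1 to 3. By these medians NFAT1 shRNA 1 sat among the controls, with NFAT1 shRNA 2 and 3 beneath them.

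**Figure D1:**
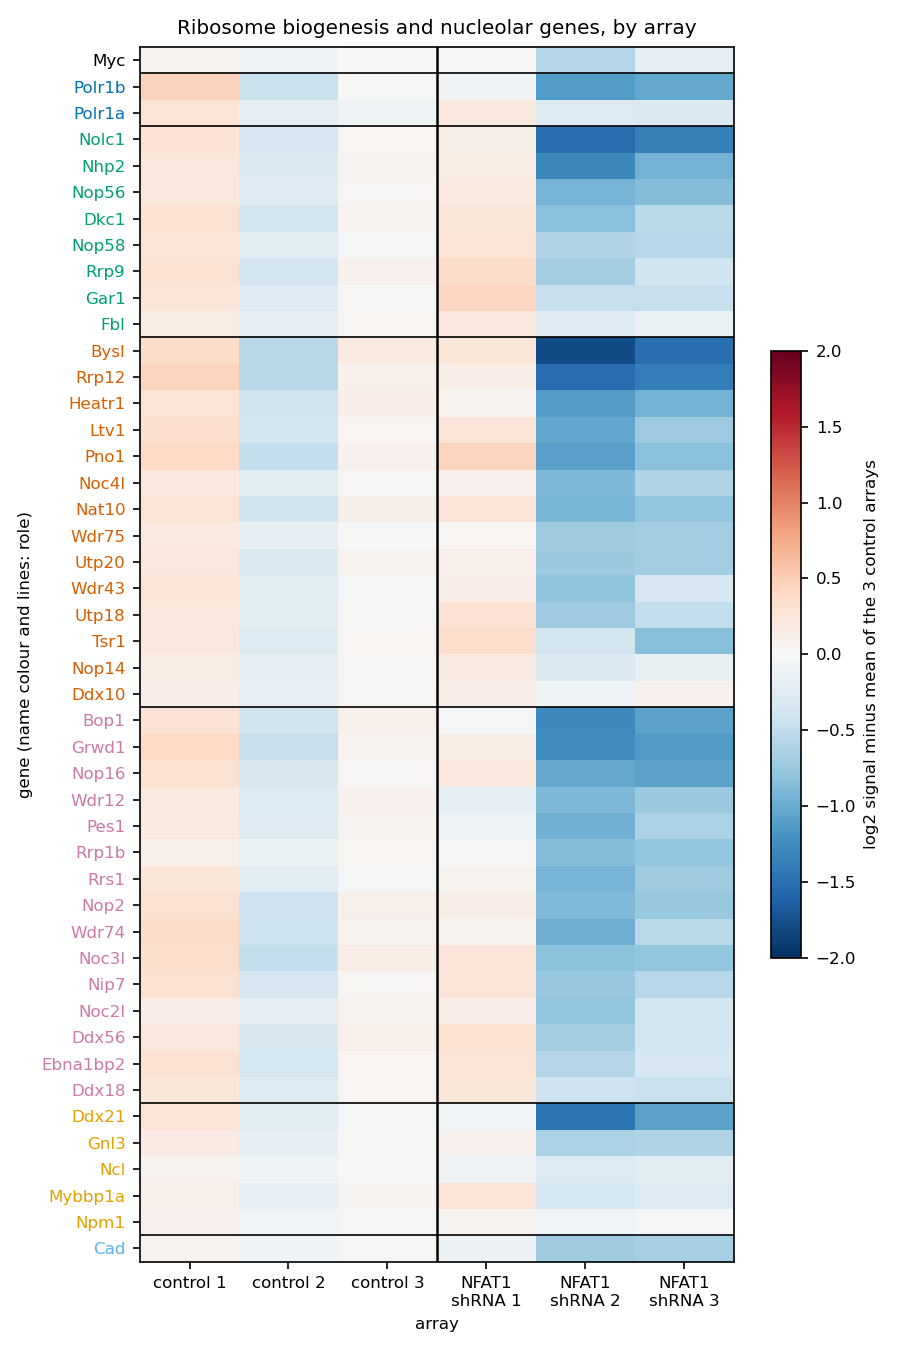
Log2 signal minus the mean of the 3 control arrays (colour) for the 46 genes (rows, in blocks by role) on the 6 arrays (columns). NFAT1 shRNA 2 and 3 are blue for nearly every gene, while NFAT1 shRNA 1 resembles the controls, and control 1 is redder than control 2 throughout.

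Of the 46 genes, 45 had a lower mean with NFAT1 shRNA, against 40.7% of all genes, with a median difference of -0.45, where the median of all genes was 0.04. In 25 genes the mean NFAT1 shRNA signal was 75% of control or less, and in 1, Bysl, it was under 50%. None passed limma at an adjusted p under 0.05, the lowest being 0.233 for Cad, while 0.33% of all genes were called lower. At an unadjusted p under 0.05 the test took 4 of the 46 genes as lower, which is 8.70% of them against 7.01% of all genes. These 4 were Cad, Wdr12, Pes1 and Ddx21. The spread within groups was often larger than the difference between them: in 28 genes the gap between controls 1 and 2 exceeded the group difference.

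The arrays were then read singly against the range of the controls. NFAT1 shRNA 2 lay below all 3 controls for 44 of the 46 genes, against 31.4% of all genes, the exceptions being Ddx10 and Npm1. NFAT1 shRNA 3 lay below all 3 controls for 41, against 28.6% of all genes, the exceptions being Ddx10, Npm1, Fbl, Nop14 and Ebna1bp2. NFAT1 shRNA 1 lay below all 3 controls for Cad alone, against 24% of all genes, and above all 3 controls for 13 genes (28.3%), against 37.1% of all genes. Groups without overlap were therefore found for 1 gene, Cad, where 8.61% of all genes had all NFAT1 shRNA arrays below all controls. Without NFAT1 shRNA 1 this count was 41, against 19.9% of all genes. Without control 2 it was 9, or 19.6% of the 46, against 14.5% of all genes.

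The number of genes called changed with the arrays used. Without NFAT1 shRNA 1, the adjusted p was under 0.05 for 26 of the 46 genes, all lower, where 7.84% of all genes were called lower, and the median difference was -0.71. With array weights of limma, which gave NFAT1 shRNA 1 the lowest weight (0.253) and control 3 the highest (10.4), 23 genes were called lower, against 8.56% of all genes. Both settings called 22 of the 46 genes, and the share of all genes called in both was not counted. Because both remove or weigh down the same array, 1 is no separate check of the other. With control 3 left out as well as NFAT1 shRNA 1, 0 of the 46 were called by limma, the lowest adjusted p being 0.0518. Of all genes, 0.984% were called lower in that setting. A block for the replicate number, with all arrays kept, called 2, Polr1b and Wdr12, against 2.06% of all genes called lower. The labels give no reason to leave out NFAT1 shRNA 1, and why it differed from the other arrays of its group was not tested.

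**Figure D2:**
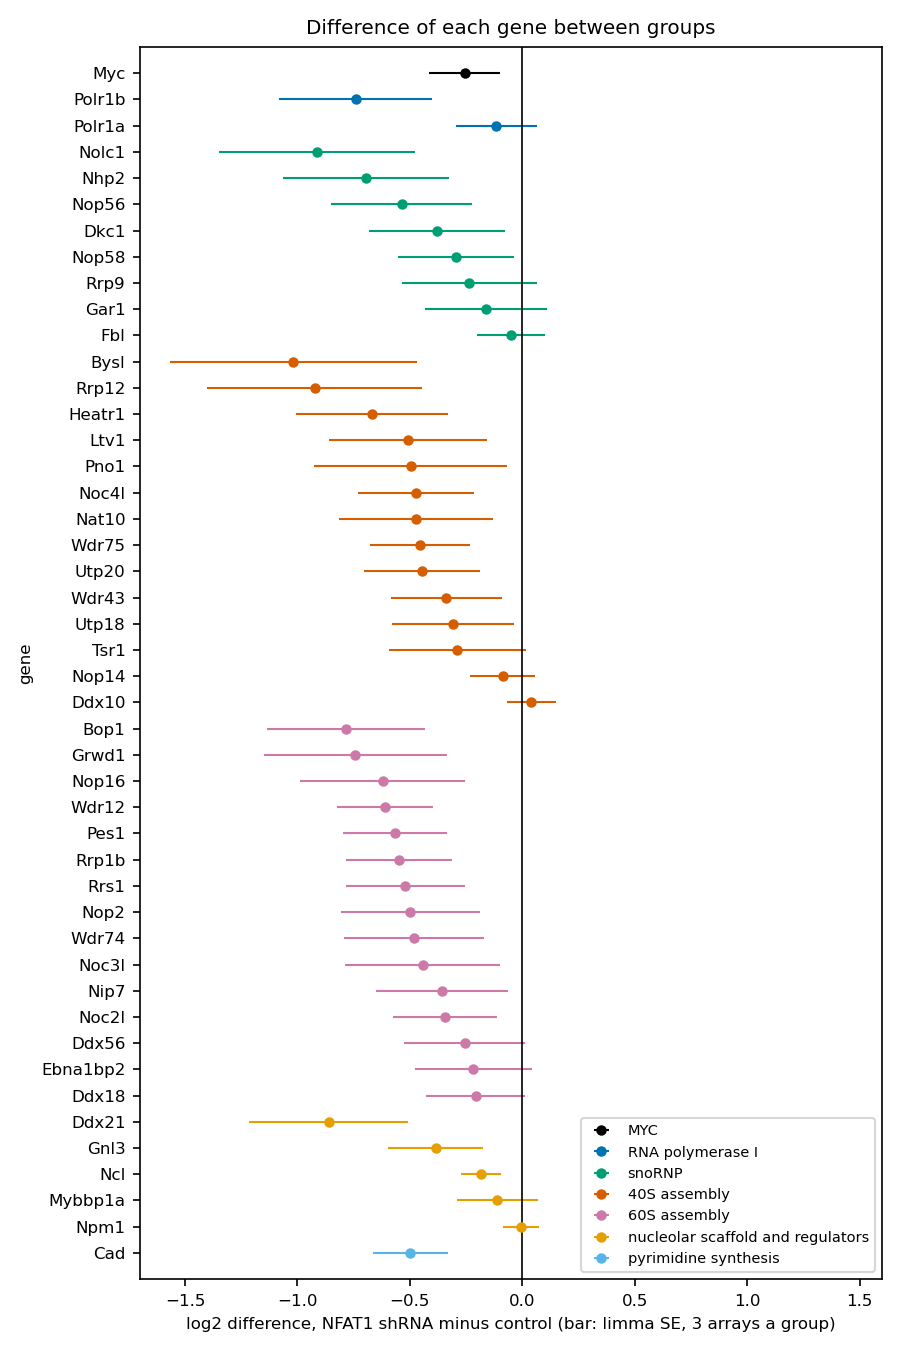
Log2 difference of each of the 46 genes, NFAT1 shRNA minus control (points, 3 arrays a group), with its limma standard error (bars), coloured by role. Only Ddx10 lies above 0, at 0.04, and the differences reach -1.02 for Bysl.

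Myc, the regulator at the head of this set, read 11.06, 10.91 and 10.99 in controls and 11.00, 10.40 and 10.79 with NFAT1 shRNA. NFAT1 shRNA 1 fell among the controls, and the other 2 arrays read below them. The difference was -0.26 ± 0.16 (SE, adjusted p = 0.423), and array 2 read 0.59 below the control mean against 0.20 for array 3. Myc has 1 probe set.

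The 2 RNA polymerase I subunits differed by unequal amounts. Polr1b, the second-largest subunit, read 8.70, 7.80 and 8.24 in controls and 8.17, 7.12 and 7.22 with NFAT1 shRNA. Arrays 2 and 3 lay below every control and array 1 among them, and the difference was -0.74 ± 0.34 (SE, adjusted p = 0.318). Polr1a, the largest subunit, differed by -0.11 ± 0.18 (SE, adjusted p = 0.757), and whether the subunits differ from each other was not tested.

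All 8 snoRNP genes had a lower mean (median difference -0.34), and 0 passed the test. Nolc1, a phosphoprotein of nucleoli and Cajal bodies that binds snoRNPs, had the largest difference. It read 11.39, 10.76 and 11.14 in controls and 11.22, 9.59 and 9.74 with NFAT1 shRNA. Arrays 2 and 3 were over 1 log2 unit below the lowest control, and array 1 was above 2 of the 3 controls. The difference was -0.91 ± 0.44 (SE, adjusted p = 0.332), and its other probe sets differed by -0.58 and -0.85. Among the genes of H/ACA particles, which carry out pseudouridylation, Nhp2 differed by -0.70, the pseudouridine synthase gene Dkc1 by -0.38 and Gar1 by -0.16. Of the C/D particle genes, which serve 2′-O-methylation, Nop56 differed by -0.54, Nop58 by -0.29 and the methyltransferase gene Fbl by -0.05. Rrp9, which binds the U3 snoRNA, differed by -0.24. By their brightest probe sets, core subunits of a single particle class thus differed by unequal amounts, with standard errors of 0.15 to 0.37. The amounts depended on the probe set: other Dkc1 probe sets differed by -0.54 and -0.82. The mean of all its probe sets differed by -0.58, against -0.73 for Nhp2. The differences between subunits were not tested.

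Of 14 genes for 40S assembly, 13 had a lower mean (median difference -0.46), and 0 passed the test. Bysl (bystin), a late 40S factor, had the largest difference of the whole set. Its signals were 10.07, 9.15 and 9.90 in controls and 9.94, 7.92 and 8.19 with NFAT1 shRNA. Control 2 lay 0.92 below control 1, NFAT1 shRNA 1 lay within the controls and the other 2 arrays below all of them. The difference was -1.02 ± 0.55 (SE, adjusted p = 0.372), or 49.4% of the control signal, and a second probe set differed by -0.96. Rrp12, which acts in the maturation and export of subunits, differed by -0.92 ± 0.48 (SE), and Heatr1, a large early processing factor, by -0.67 ± 0.34. The late 40S factors Ltv1 and Pno1 differed by -0.51 and -0.50. Nat10, the RNA acetyltransferase, differed by -0.47, as did Noc4l, followed by Wdr75 (-0.45), Utp20 (-0.45), Wdr43 (-0.34), Utp18 (-0.31) and Tsr1 (-0.29). These are factors of the early small subunit processome, apart from Tsr1, which acts late. Nop14 differed by -0.09 ± 0.14 and the helicase gene Ddx10 by 0.04 ± 0.11 (SE). Ddx10 was the 1 gene of the 46 with a higher mean. Its sign turned when array medians were subtracted (-0.05).

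All 15 genes for 60S assembly had a lower mean (median difference -0.50), and 0 passed the test. Bop1, Pes1 and Wdr12 form the PeBoW complex, which is needed to process the precursor of the large subunit RNA. Bop1 read 9.78, 9.08 and 9.59 in controls and 9.47, 8.22 and 8.42 with NFAT1 shRNA, a difference of -0.78 ± 0.35 (SE, adjusted p = 0.312), the largest of this role. Pes1 read 10.27, 9.83 and 10.14 in controls and 9.98, 9.12 and 9.44 with NFAT1 shRNA (-0.57 ± 0.23, SE, adjusted p = 0.286). Wdr12 read 10.18, 9.71 and 10.08 in controls and 9.80, 9.09 and 9.24 with NFAT1 shRNA (-0.61 ± 0.21, SE, adjusted p = 0.244). In all 3 genes, NFAT1 shRNA 1 stayed above control 2, and the other NFAT1 shRNA arrays lay below every control. The second Pes1 probe set went the other way, by 0.24, and the mean of both differed by -0.16. Without NFAT1 shRNA 1, the 3 genes differed by -1.17, -0.80 and -0.82, with limma adjusted p-values of 0.0149, 0.0217 and 0.0176. That array read highest of its group for all 46 genes, so leaving it out lowers the group mean of each. With any other single array left out, 0 of the 46 genes were called.

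The other 60S factors had differences from -0.74 for the WD repeat gene Grwd1 to -0.21 for the helicase gene Ddx18. Nop16 differed by -0.62, Rrp1b by -0.55, Rrs1 by -0.52, the RNA methyltransferase gene Nop2 by -0.50 and Wdr74 by -0.48. Noc3l (-0.44), Nip7 (-0.36), Noc2l (-0.34), the helicase gene Ddx56 (-0.26) and Ebna1bp2 (-0.22) followed. Their adjusted p-values ran from 0.300 for Rrp1b to 0.674 for Ebna1bp2.

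The 5 nucleolar scaffold and regulator genes had differences from -0.86 to -0.0061, and 0 passed the test. Ddx21, a helicase that links transcription by RNA polymerase I with rRNA processing, read 10.35, 9.86 and 10.04 in controls and 10.03, 8.63 and 9.01 with NFAT1 shRNA. Arrays 2 and 3 lay below all controls and array 1 among them, a difference of -0.86 ± 0.35 (SE, adjusted p = 0.286). A second Ddx21 probe set differed by -0.85. At the other end stood Npm1 (nucleophosmin), a chaperone of the granular nucleolus, with 13.63, 13.48 and 13.52 in controls and 13.59, 13.50 and 13.53 with NFAT1 shRNA. Its groups coincided, with a difference of -0.0061 ± 0.08 (SE, adjusted p = 0.974). Ncl (nucleolin), an abundant RNA-binding protein of the nucleolus, differed by -0.18 ± 0.09 (SE), its 4 other probe sets by -0.28 to -0.65 and the mean of all 5 by -0.38. The difference was -0.39 for the GTPase gene Gnl3 (nucleostemin) and -0.11 for Mybbp1a, which encodes a MYB-binding protein of the nucleolus. Npm1 and Ncl had the brightest probe sets of the 46, and the highest value on any array was 14.22. Without NFAT1 shRNA 1, the highest array of its group for all 46 genes, Ddx21 differed by -1.26 (limma adjusted p = 0.00860). It was not called with any other single array left out.

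Cad encodes the enzyme that starts pyrimidine synthesis, a supply for rRNA, and is a textbook MYC target. It read 10.23, 10.08 and 10.19 in controls and 10.04, 9.45 and 9.50 with NFAT1 shRNA. It was the 1 gene of the 46 without overlap between the groups, but NFAT1 shRNA 1 lay only just below the lowest control. The difference was -0.50 ± 0.17 (SE, adjusted p = 0.233), the smallest adjusted p of the set, and other Cad probe sets differed by -0.49 and -0.13. The groups overlapped on both of these. On the first, NFAT1 shRNA 1 read 9.82, where the controls read 9.91, 9.81 and 9.89. Without NFAT1 shRNA 1, the highest array of its group, the chosen Cad probe set differed by -0.69 (limma adjusted p = 0.00746). Cad was not called with any other single array left out.

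Further probe sets of the same genes were also read. They come from the same 6 arrays and are no independent check of the difference between groups. Of 49 such probe sets, 43 were lower (median difference -0.34), where 40.7% of all genes were lower by their brightest probe set. Of the 32 genes with several probe sets, 27 had all of them in 1 direction. None of the 95 probe sets passed limma fitted to the whole array, and 10 (10.5%) were lower at an unadjusted p under 0.05, against 7.84% of all single-symbol probe sets. Those that were higher belonged to Pes1, Ddx10, Ebna1bp2, Polr1a, Nat10 and Ddx18, by 0.24 for Pes1, 0.13 and 0.04 for Ddx10 and 0.03 for Ddx18. Those of Ebna1bp2, Polr1a and Nat10 were dim, with signals under 6 on all arrays.

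The gap between controls 1 and 2 varied from 0.14 for Npm1 to 0.99 for Rrp12. Across the 46 genes this gap ran with the distance of NFAT1 shRNA 2 from control 3 (Pearson r = -0.69, Spearman rho = -0.69) and of NFAT1 shRNA 3 from control 3 (r = -0.69, rho = -0.65), but little with that of NFAT1 shRNA 1 (r = 0.13, rho = 0.12). The distances use no array of the gap. Genes that differed more between the controls, such as Bysl and Rrp12, also lay farther below control 3 on NFAT1 shRNA 2 and 3. Over all 18193 genes r was -0.50, -0.52 and 0.28 for NFAT1 shRNA 2, 3 and 1, so the relation was not limited to this set. Genes of an array share its RNA and its labelling, and are not independent points.

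**Figure D3:**
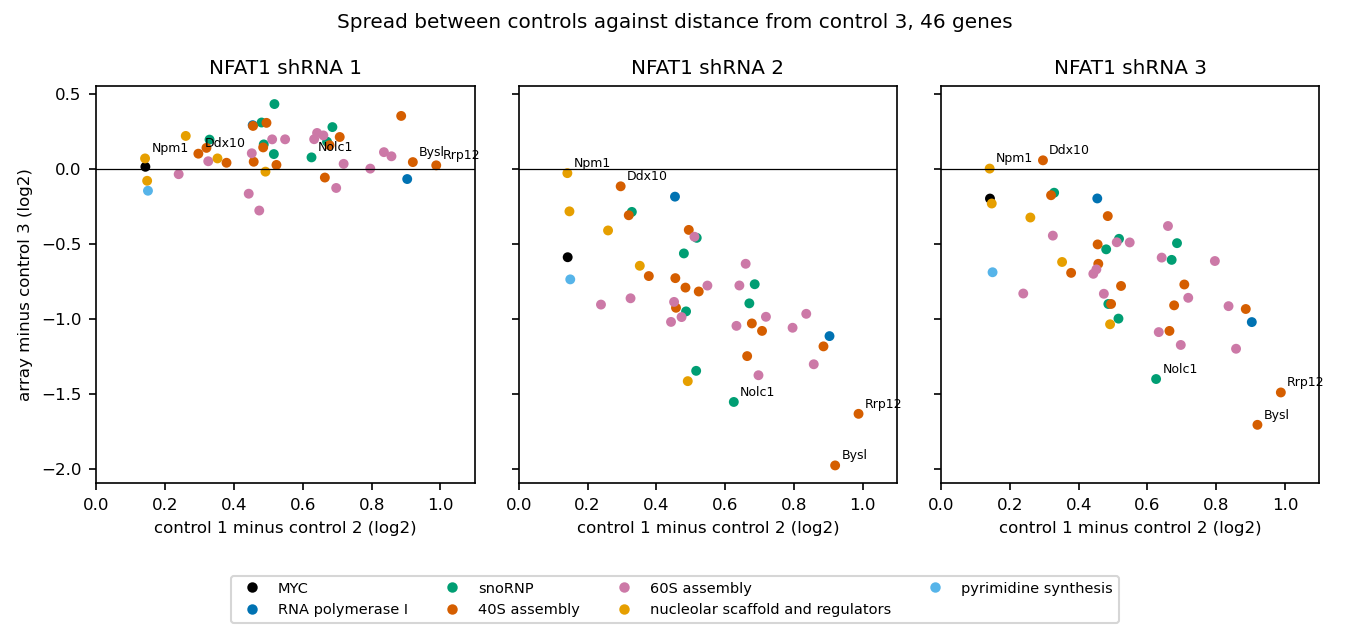
Difference of control 1 and control 2 (horizontal, log2) against the signal of each NFAT1 shRNA array minus control 3 (vertical, log2), 1 point per gene, coloured by role, 1 panel per NFAT1 shRNA array. Points slope downward for NFAT1 shRNA 2 and 3, from Npm1 near 0 to Bysl at -1.98 and -1.71, and scatter around 0 for NFAT1 shRNA 1.

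Promoters were inspected because the genes shared 1 order of the arrays. RefSeq windows of the GRCm38.p6 build, 300 bases long from 250 before to 50 after a start site, were held for 40 of the 46 genes. The others were Myc, Fbl, Npm1, Rrs1, Rrp12 and Bop1. The E-box CACGTG, the core sequence to which MYC binds and which reads the same on either strand, was found in 10 of the 40 (25%), against 8.09% of all genes with such windows and 7.15% of all windows. The 10 matches lay from 60 bases before the start site (Nop2) to 41 after it (Mybbp1a), 8 of them after it. Since the windows end 50 bases after the start site, matches there could not lie farther. Positions over all genes were not counted. They are printed with 30 bases each, 5′ to 3′ on the gene's strand, with the E-box in capitals and in the order of the genes' differences:
Grwd1 (chr7:45830740-45830769, minus strand): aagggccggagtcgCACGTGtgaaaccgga
Pes1 (chr11:3963965-3963994, plus strand): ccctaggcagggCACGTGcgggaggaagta
Ltv1 (chr10:13193092-13193121, minus strand): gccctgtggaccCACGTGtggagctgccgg
Nop2 (chr6:125131811-125131840, plus strand): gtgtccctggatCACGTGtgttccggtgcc
Pno1 (chr11:17211540-17211569, minus strand): tgcgctgtacaaccacgCACGTGttcctct
Utp20 (chr10:88826765-88826794, minus strand): cccagcggcactaactaCACGTGaggaaaa
Wdr43 (chr17:71616220-71616249, plus strand): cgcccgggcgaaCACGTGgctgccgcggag
Utp18 (chr11:93885769-93885798, minus strand): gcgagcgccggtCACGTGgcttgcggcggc
Tsr1 (chr11:74898092-74898121, plus strand): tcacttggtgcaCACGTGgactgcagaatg
Mybbp1a (chr11:72441347-72441376, plus strand): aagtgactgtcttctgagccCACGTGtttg

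Genes with and without the E-box in these windows differed by similar amounts between the groups. Sites outside the windows were not searched, so genes without a match here may still hold an E-box elsewhere. The median difference was -0.47 for the 10 genes with it, from -0.74 for Grwd1 to -0.11 for Mybbp1a, and -0.45 for the 30 without it, from -1.02 to 0.04. Bysl, Nolc1, Ddx21 and Cad, described above with all arrays, had no E-box in these windows. In all, 7 short motifs were searched on both strands. CCGGAAG, a site of the ETS transcription factors, was found in 15 of the 40 genes (37.5%), against 9.93% of all genes. It is shown for the 4 genes with this motif that differed most, again with 30 bases each and the motif in capitals:
Nolc1 (chr19:46075821-46075850, plus strand): acgcgtgtgggaCCGGAAGcaacttctaga
Grwd1 (chr7:45830811-45830840, minus strand): gggaggtgaaacCCGGAAGtgacgctctca
Nhp2 (chr11:51619738-51619767, plus strand): ccacttgaaaacCCGGAAGtgatgtcggag
Heatr1 (chr13:12395347-12395376, plus strand): cgtagtgagaagCCGGAAGttcctatgagg

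The 4 matches lay 14 to 39 bases before the start site. GGAAAA, the core to which NFAT proteins bind, was found in 11 of the 40 genes (27.5%), against 26.1% of all genes. Nolc1, Ddx21 and Cad were among these genes, and Bysl was not. The median difference was -0.34 for genes with GGAAAA and -0.47 for those without it. GGAAAA shares the letters GGAA with the ETS motif, but no GGAA can belong to both on 1 strand. CCAAT was found in 37.5% (41.1% of all genes), TATAAA in 5% (15.7%), AAGATGGC in 2.5% (3.19%) and TCTCGCGA in 7.5% (1.13%). These shares were not tested, and a match is a description of the letters only.

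Other genes of the pathway, from lists written without the 46, also had mostly lower means, by less. Of 48 further 60S assembly genes, 41 had a lower mean (median difference -0.27), of 40 further 40S genes 31 (-0.14), of 14 further RNA polymerase I genes 13 (-0.23), of 12 snoRNP assembly genes 11 (-0.17) and of 15 exosome genes 10 (-0.23). None of these genes passed the test in either direction. The largest differences were -0.63 for Lyar, -0.71 for Nol10, -0.90 for Polr1e, -0.46 for Znhit3 and -0.65 for Exosc1. Their medians followed the arrays in the same way, for example 0.20, -0.21 and 0.03 on the controls and 0.12, -0.51 and -0.41 on NFAT1 shRNA 1 to 3 for the 60S list.

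The cytosolic ribosomal proteins, the products assembled by these factors, showed no such shift. Of 47 genes, 21 had a lower mean; the median difference was 0.02, and medians lay from -0.03 to 0.06 on all arrays. The gene with the largest difference, Rpl12, differed by -0.35. DNA replication genes shared the lower level on NFAT1 shRNA 2 and 3 (-0.54 and -0.46), and 29 of 31 had a lower mean, but their control medians were 0.02, -0.02 and 0.01, without the gap between controls 1 and 2. The largest difference there was -1.11 for Cdc6. None of the genes in either list passed the test, and the differences between the lists were not tested.

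**Figure D4:**
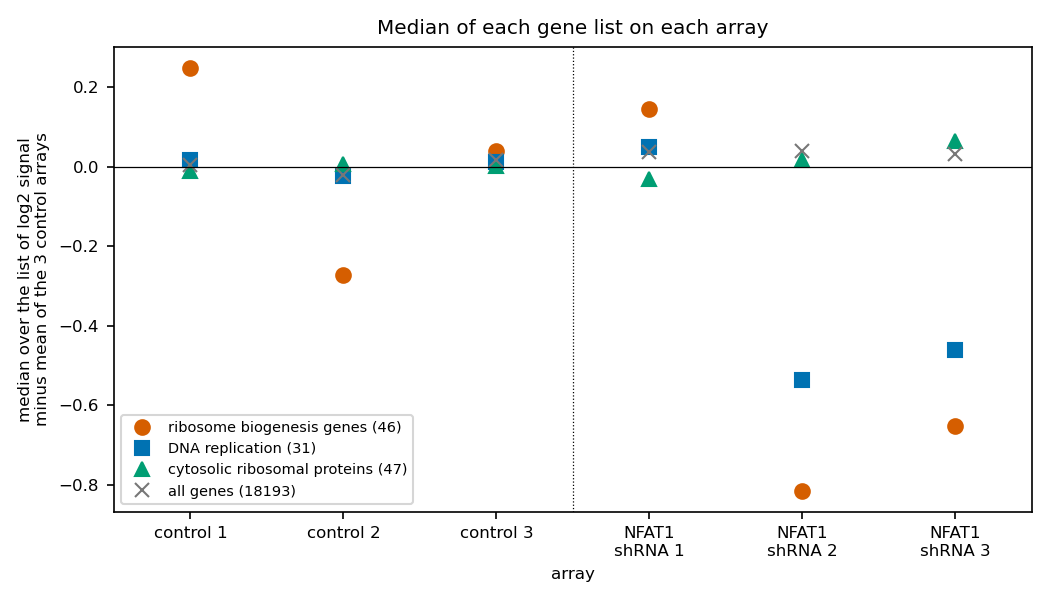
Median over each gene list of the log2 signal minus the control mean (vertical) on each of the 6 arrays (horizontal), for the 46 genes, 31 DNA replication genes, 47 cytosolic ribosomal protein genes and all 18193 genes. The 46 genes range from 0.25 to -0.27 over the controls, where the other lists stay near 0, and read lowest on NFAT1 shRNA 2 and 3.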

How the data were processed

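RNA of 6 samples of 4T1 cells, 3 with control shRNA and 3 with NFAT1 shRNA, was measured on Affymetrix arrays. The submitters' processing notes name RMA, by which the authors obtained the deposited log2 signals; its version is not given in the sources used here. Because RMA aligns the arrays' distributions, a change common to most transcripts would not be seen. Of 45037 probe sets, 34945 had 1 gene symbol, 932 had several and 9160 are unnamed here. Names came from the platform annotation and the RefSeq table of GRCm38.p6, and the brightest probe set was kept for each of 18193 genes.

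Groups were compared over all genes with lmFit and eBayes of limma 3.58.1 (R 4.3.3), without filter or covariates, with 2-sided p-values adjusted by Benjamini-Hochberg and called under 0.05. An exact permutation of 3 against 3 arrays cannot go below 0.1 and was not used. The fit was tested on simulated data with independent noise for each gene. These data held no effect shared by the genes of an array, so the test does not cover the order of arrays described above. Counts, medians and motifs were computed with Python 3.11.15.

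The 46 genes and all lists were chosen with earlier results of these data known. By rule, all 6 arrays are given for Myc, Ddx21, Wdr12, the gene with the largest difference of each role, genes with an unadjusted p under 0.05 and the gene with the smallest difference. Alternatives were a filter on dim genes, other scaling, another variance prior, array weights, a replicate block, other probe sets, another threshold and leaving out arrays.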

Additional observations from a re-analysis of the deposited data

How the results depend on the processing

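The median difference of the 46 genes stayed lower in every setting tried. It moved within the spread of the arrays (0.41), from -0.71 without NFAT1 shRNA 1 to -0.25 without NFAT1 shRNA 2. The count of called genes was 0 of 46 in all settings but array weights (23), the replicate block (2, against 2.06% of all genes called lower) and without NFAT1 shRNA 1 (26), so that it ran from 0 to 26 when 1 array was left out. Genes without overlap, 1 with all arrays, were 0 with array medians subtracted, with the mean of all probe sets and without probe sets prone to cross-hybridisation, and 2 with quantile normalization repeated, where the shares of all genes were 10.2%, 8.82%, 8.23% and 10.9%. They ran from 1 to 41 with 1 array left out (41 without NFAT1 shRNA 1, 9 without control 2, against 19.9% and 14.5% of all genes), and 41, against 21.8% of all genes, were found with control 3 and NFAT1 shRNA 1 both left out, an alternative added after seeing the data. Over the whole array 93 genes were called, against 151 with array medians subtracted, 3380 with array weights, 792 with the replicate block, 284 at an adjusted p under 0.10, 407 with those 2 arrays left out and from 0 to 3349 with 1 array left out (3349 without NFAT1 shRNA 1, 2 without NFAT1 shRNA 2). By limma, without control 1, 2 or 3 it was 0 each (1698, 2247 and 1761 at an unadjusted p under 0.05). No label states that arrays with equal replicate numbers are pairs, and pairing was not tested. Deviations from the group means correlated over genes at 0.69, 0.53 and -0.04 for numbers 1, 2 and 3. Among unequal numbers, control 1 correlated with NFAT1 shRNA 2 at -0.55, and control 2 with NFAT1 shRNA 3 at 0.46.

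Signs turned in 6 genes with small differences, whose limma adjusted p-values with all arrays ran from 0.757 for Polr1a to 0.974 for Npm1. Ddx10 read -0.047 with array medians subtracted, -0.023 with array weights and -0.040 to 0.108 with 1 array left out. The ranges with 1 array left out were -0.276 to 0.020 for Polr1a, -0.189 to 0.052 for Fbl, -0.215 to 0.010 for Nop14, -0.036 to 0.035 for Npm1 and -0.307 to 0.0081 for Mybbp1a.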

Other observations

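Genes of the MYC network had no common direction. Of 13 measured partners and relatives of MYC, 0 passed limma, and 2 were lower and 2 higher at an unadjusted p under 0.05. Of all 18193 genes, 1275 were lower and 1840 higher at that threshold. Mxd4, a repressor that competes with MYC for its partner Max, read 4.47, 5.98 and 5.49 in controls and 5.33, 7.82 and 8.01 with NFAT1 shRNA (1.74 ± 0.76, SE, adjusted p = 0.305). Its array order was the reverse of the 46 genes, lowest on control 1 and high on NFAT1 shRNA 2 and 3, with NFAT1 shRNA 1 among the controls. On control 1 it was dim, below the lowest array median of 5.42. The share of all genes with such an order was not counted, and any link to the 46 genes was not tested. The repressor Mxi1 read 8.65, 9.18 and 8.93 in controls and 8.89, 9.78 and 9.84 with NFAT1 shRNA, in a like order. Among the other repressors, Mnt differed by 0.52 (adjusted p = 0.266), Mxd1 by 0.13, Mga by -0.02 and Mxd3 by -0.19, and Max itself by -0.15. The lowest adjusted p-values of the list were 0.0892 for Mlxipl, which was dim and differed by 0.59, and 0.133 for the MYC relative Mycl, which differed by -0.79.

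Of 24 genes listed as MYC targets outside the nucleolus, 20 had a lower mean (median difference -0.19), and 0 passed the test. Ccnd2, a G1 cyclin gene, differed by -1.21 (adjusted p = 0.254), and its 3 NFAT1 shRNA arrays, at 8.65, 7.41 and 9.09, all lay below the controls (9.96, 9.16 and 9.67). Ppat, the first enzyme of purine synthesis, read 9.42, 8.90 and 9.21 in controls and 8.73, 7.61 and 7.91 with NFAT1 shRNA (-1.09 ± 0.29, SE, adjusted p = 0.180). These arrays also did not overlap. In all 2 of the 24 genes (8.33%) were lower without overlap, against 8.61% of all genes. Cdk4, which encodes a G1 kinase, went the other way without overlap, at 10.95, 10.83 and 10.90 in controls and 11.09, 11.12 and 11.22 with NFAT1 shRNA (0.25 ± 0.08, SE, adjusted p = 0.222). No overlap in the higher direction was seen for 14.2% of all genes.

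Of 8 further pyrimidine genes, 5 had a lower mean (median difference -0.51). The largest difference was -1.06 for Tyms (adjusted p = 0.253), a gene that is also on the DNA replication list. Dhodh, which acts after Cad in the same pathway, differed by -0.76, Ctps by -0.71 and Umps by -0.58, with adjusted p-values of 0.270 to 0.347. Ctps2, the second CTP synthase gene, differed by 0.58 and was higher on NFAT1 shRNA 2 and 3 than on any control.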
